A study of Mus musculus with 4 samples.

Results

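Translation initiation and elongation factors are the proteins that load ribosomes onto an mRNA, find its start codon and move the ribosome from codon to codon. Their genes were chosen by name from a table of ribosome-protected signal in mouse myoblasts: the protein-coding genes whose symbols begin with Eif1 to Eif6, Eef1 or Eef2, leaving out the hypusine-carrying factors Eif5a and Eif5a2, the eIF2 kinases and the Y-linked copy of Eif2s3. The rule gave 62 genes of the 55573 in the table, 48 with an initiation factor symbol and 14 with an elongation factor symbol. Reads were found for 58 of them. The cap-binding paralog Eif4e1b, the eIF3 gene Eif3j2, the eIF4E-binding protein gene Eif4ebp3 and the methyltransferase gene Eef1akmt3 had 0 reads in each of the 4 libraries.

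The cells were primary myoblasts, cultured precursors of muscle obtained by digesting hind-limb muscle of 3-week-old mice, on day 2 of proliferation. Wild type (WT) and eIF5A knockout (KO) were each represented by 2 libraries. Their titles call the assay Polysome-Seq, but the extraction text describes ribosome profiling, that is, RNase I digestion and sequencing of the fragments that ribosomes protect. Both groups were grown in DMEM with fetal bovine serum and FGF and were treated with cycloheximide, which holds ribosomes on the mRNA. In the study's mice, KO means Pax7-CreERT2/+; eIF5A f/f, in which tamoxifen activates a Cre recombinase made from the Pax7 gene. That Cre is limited to satellite cells and their offspring, and a digested muscle also holds other cells. The sources differ on whether WT mice carried the Cre allele or the floxed allele, so the control genotype is not stated here. The study speaks of duplicate experiments, and of WT littermates for its polysome fractions, without saying whether the libraries of a group came from separate mice or cultures, and p-values then measure only the spread between these libraries, which may be technical.

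The libraries held from 642429 to 704006 reads, of which protein-coding genes took 37.7% ± 5.40 (SD, n = 2) in WT and 62.3% ± 4.33 (SD, n = 2) in the KO-labelled libraries. Eif5a itself was not lower under the KO label. It read 34.9 and 65.2 RPKM (reads per kilobase of gene, scaled to library size) in WT, and 60.3 and 59.4 RPKM in the KO-labelled libraries (log2 fold change 0.32, standard error 0.48, adjusted p 0.839 by limma). The group is therefore called by its label throughout. Markers of muscle cells stood lower under the KO label: 10 myogenic genes summed to 353 and 214 RPKM in WT and to 122 and 136 RPKM under that label. Among them Myog read 91.0 and 4.26 RPKM in WT and 0.74 and 1.66 RPKM under the KO label, so that WT library 1 stood alone. Of the 10 genes 9 lay below a log2 fold change of 0 (median -1.15), none at an adjusted p under 0.05. Of 10 fibroblast markers 7 lay above 0 (median 0.37; sums of 624 and 428 RPKM in WT, 998 and 484 RPKM under the KO label). Among endothelial markers 6 of 7 tested lay above 0 (median 0.35; sums of 156 and 171 against 196 and 173 RPKM). Immune markers gave sums of 48.2 and 76.5 against 68.0 and 51.4 RPKM, with 2 of 5 tested genes above 0 and Ptprc at or under 0.45 RPKM in every library. The part of these cell types in the results that follow was not tested. In such bulk libraries, fewer cells of a type and less ribosome-bound RNA per cell cannot be told apart.

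As background, initiation in the cytosol begins when eIF2, carrying GTP and the initiator tRNA, joins the small ribosomal subunit with eIF1, eIF1A, eIF3 and eIF5. The eIF4F complex, made of the cap-binding protein eIF4E, the scaffold eIF4G and the helicase eIF4A, brings this assembly to the capped end of the mRNA. The 4E-binding proteins compete with eIF4G for eIF4E and let go of it when mTORC1 phosphorylates them. eIF2B reloads eIF2 with GTP, eIF5B joins the large subunit, and elongation then cycles through eEF1A, which delivers tRNAs, its exchange complex eEF1B, and eEF2, which moves the ribosome along. Satellite cells, the stem cells of muscle, are known for low protein synthesis at rest and for raising it when they activate.

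Ribosomes need eIF5A to pass runs of proline codons, so the coding sequences of the factors were read for such runs. A run of 3 or more prolines was found in 12 of the 62 genes. The runs of 3 genes are shown as examples, not as the longest: those of the eIF2B subunit gene Eif2b5 and the scaffold gene Eif4g3, with 4 prolines each, and that of the cap-binding gene Eif4e, with 3. The stretches below hold them in 30 coding bases each (GRCm38, plus strand, 5′ to 3′), with the proline codons in capitals. They lie in exon 1 of 16 of Eif2b5 (chr16:20499007-20499036), exon 1 of 34 of Eif4g3 (chr4:137993582-137993611) and exon 3 of 8 of Eif4e (chr3:138546333-138546362).
Eif2b5: gaggaggagCCGCCGCCGCCCctccaggca
Eif4g3: gacagagacCCCCCGCCGCCGgcccatgag
Eif4e: accactaatCCCCCACCTgcagaagaggaa

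The 12 tested genes with a proline run had a median log2 fold change of 0.32 under the KO label, with 10 above 0. The other 45 tested genes had a median of 0.49, with 36 above 0. Both KO-labelled libraries lay above both WT libraries for 4 of the 12 and 22 of the 45, against 20.1% of all tested genes, and below both for 1 and 4, against 20.3%. Single genes with a run reached from -0.19 (Eif2b5) to 1.23 (Eif4e).

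Most of the factors had more ribosome-protected signal in the KO-labelled libraries, and none passed the test over all genes. No mRNA levels were used here, so a change in mRNA and a change in translation per mRNA cannot be told apart. A gene was tested when its mean reached 1 RPKM over the 4 libraries. This left 57 of the 62, the muscle-type elongation factor gene Eef1a2 (3 reads, each in KO library 2) being dropped with the 4 genes without reads. The fit was limma on log2(RPKM + 1), and a fold change on this scale understates the change of genes with little signal. Of the tested factors, 46 lay above a log2 fold change of 0 and 11 below, with a median of 0.48 and a middle range from 0.07 to 0.63. The median of all 11363 tested genes was 0.00026 and that of protein-coding genes 0.05. At an adjusted p under 0.05 there were 0 factors, against 0.106% of all tested genes, and the smallest adjusted p of a factor was 0.665. By limma-voom on the recovered reads there were also 0, against 0.425% of all genes in that fit. At an unadjusted p under 0.05 there was 1 lower factor, Eif4ebp2, against 4.46% of all tested genes, and there were 3 higher ones, Eif4e, Eif1b and Eif2b1, against 2.86%.

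Values without overlap were counted next, that is, genes for which both libraries labelled KO lay on the same side of both WT libraries. Of the tested factors, 26 (45.6%) were higher without overlap, against 20.1% of all tested genes and 22.4% of the protein-coding ones. Another 5 (8.77%) were lower without overlap, against 20.3% of all and 19.3% of the protein-coding genes. For the other 26, the groups overlapped. The genes of cytosolic ribosomal proteins, the other large class of the translation apparatus, gave 13.8% higher and 23.8% lower without overlap over 80 tested genes, with a median log2 fold change of -0.02. WT library 1 weighed on these figures: without it the median of the factors was 0.29. Removing the dependence on coding GC within each library gave 0.25.

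**Figure D1:**
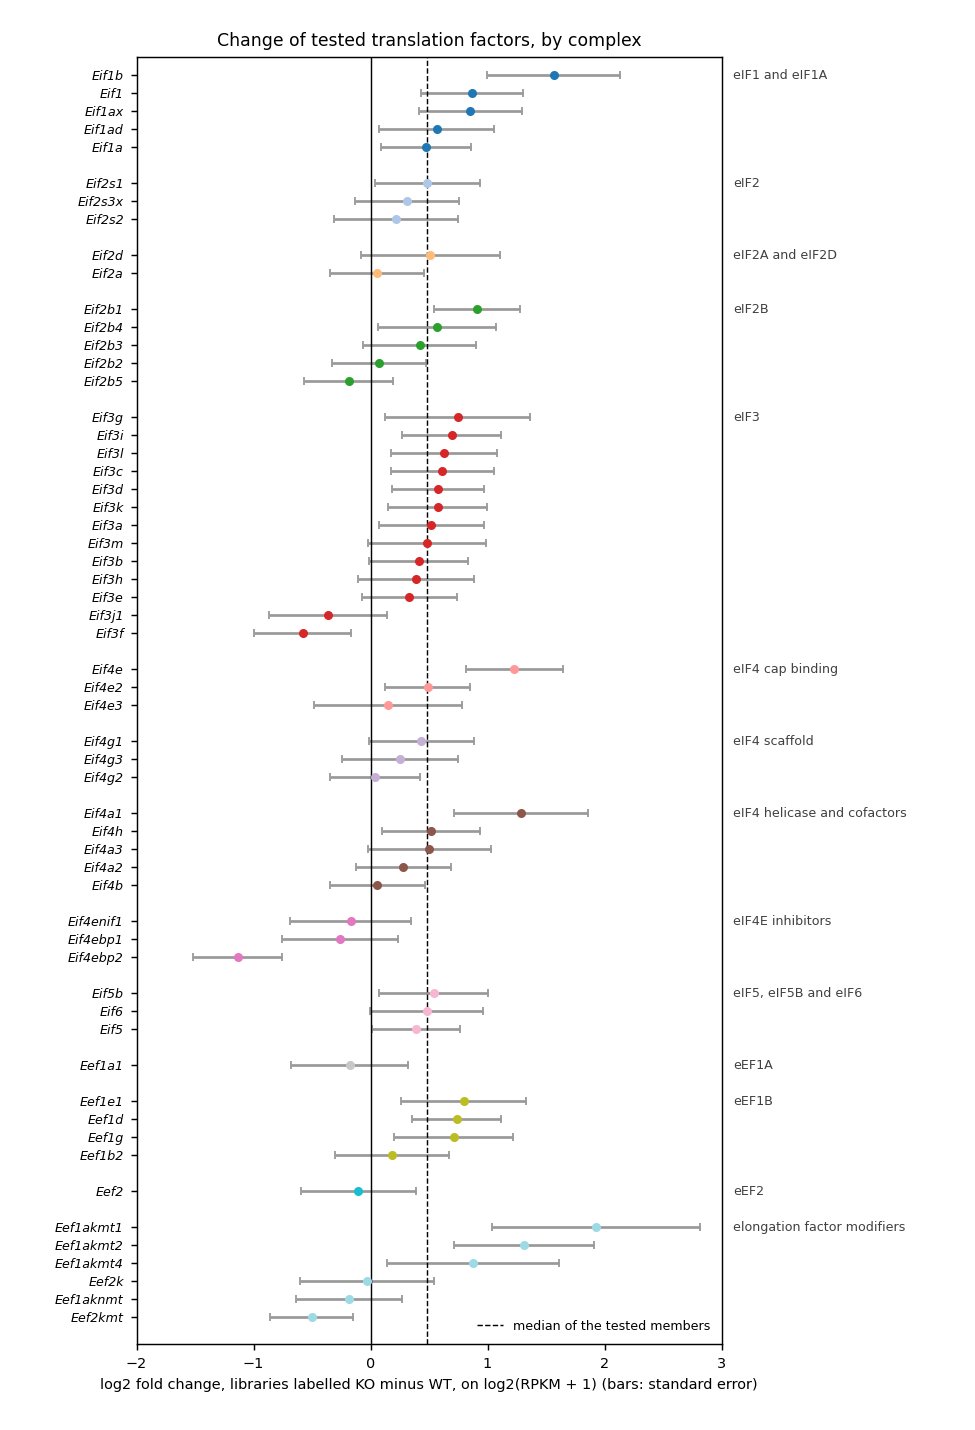
Log2 fold change of each tested factor on log2(RPKM + 1), libraries labelled KO minus WT, grouped by complex, with bars for the standard error and a dashed line at the median of 0.48. Of 57 factors 46 lie to the right of 0. With libraries scaled to the same sum of reads, 56 do, and the median of all genes moves to 0.50.

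Counted as a share of the reads on protein-coding genes, which does not depend on the library size the authors divided by, the factors together took 1.27% and 1.35% in WT and 1.44% and 1.51% in the KO-labelled libraries. The groups did not overlap. Eef1a1 and Eef2 together took 0.363% ± 0.007 (SD, n = 2) in WT and 0.307% ± 0.040 (SD, n = 2) under the KO label, whereas the rest of the factors took 0.945% ± 0.046 (SD, n = 2) and 1.16% ± 0.010 (SD, n = 2). By exact permutation (two-sided) each of the 3 comparisons had p = 0.33, and a design of 2 against 2 libraries cannot go lower.

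The factors that read the start codon, eIF1 and eIF1A, all lay above 0. The 5 genes of this group (Eif1, Eif1b, Eif1a, Eif1ax and Eif1ad, a gene for a protein with an eIF1A-like domain) had a median log2 fold change of 0.85, or 0.47 with the GC trend removed, and 4 of them were higher without overlap, against 20.1% of all tested genes. Eif1 (ENSMUSG00000035530, chromosome 11, 100319885 to 100322096, 4 exons) codes for the protein that keeps the scanning ribosome open until a start codon is found. It read 23.7 and 35.4 RPKM in WT and 49.4 and 58.4 RPKM in the KO-labelled libraries. Each KO value lay above each WT value (log2 fold change 0.87, standard error 0.44, adjusted p 0.676 by limma). Its paralog Eif1b (ENSMUSG00000006941, chromosome 9, 120492232 to 120495330, 4 exons) read 2.95 and 9.43 RPKM in WT, from 2 and 5 reads, and 14.7 and 22.0 RPKM, from 15 and 20 reads. The groups were again apart (log2 fold change 1.57, standard error 0.57, adjusted p 0.672 by limma), with few reads in WT, and without WT library 1 the log2 fold change was 0.87. Eif1ax read 4.72 and 9.27 RPKM in WT and 11.5 and 14.3 RPKM under the KO label, and Eif1a read 7.96 and 7.64 against 13.2 and 9.51 RPKM.

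Eif1 and Eif1b encode proteins of 113 residues, of which 9 differ, from coding sequences that are 81.1% identical. The following 30 bases of exon 2 of each gene show a stretch in which they differ (codons 17 to 26, GRCm38, plus strand, chr11:100320683-100320712 for Eif1 and chr9:120494124-120494153 for Eif1b). Of the 28-base windows of Eif1, 99.0% also occur in other genes, of which the 24 pseudogenes had 0 to 3 reads in a library, and 2.24% of those of Eif1b do. Capitals mark the 9 bases that differ.
Eif1: aGtaagggTgaTgacCtGctTccTgcTggC
Eif1b: aCtaagggCgaCgacTtActCccGgcAggG

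Of the RPKM of this pair, Eif1 held 84.0% ± 7.06 (SD, n = 2) in WT and 74.9% ± 3.13 (SD, n = 2) in the KO-labelled libraries. The libraries did not overlap, and by exact permutation p was 0.33, or 0.667 adjusted over the 6 paralog pairs compared. The difference of -9.10 points became -4.11 points without WT library 1. Counted in reads, the difference with all libraries was -5.91 points, from 90.6% in WT to 84.7% under the KO label. By reads, the share of Eif1 ranged from 83.2% in KO library 2 (95% Wilson interval 75.5 to 88.8) to 93.8% in WT library 1 (79.9 to 98.3), and these intervals, which cover counting error only, overlap.

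Differences in the 3 subunits of eIF2, which carries the initiator tRNA, were small, with overlapping groups for 2 of them. Eif2s1, the alpha subunit that stress kinases phosphorylate, read 4.69 and 9.86 RPKM in WT and 10.0 and 10.0 RPKM in the KO-labelled libraries. The groups were apart by a narrow margin, with WT library 2 close to the KO-labelled ones and WT library 1 well below, and without the latter the log2 fold change was 0.02. The beta subunit gene Eif2s2 read 37.1 and 18.2 RPKM in WT and 39.5 and 23.5 RPKM under the KO label, the libraries numbered 1 being the high ones in each group. Eif2s3x, the gamma subunit that binds GTP and tRNA, read 9.14 and 8.91 RPKM against 15.9 and 8.12 RPKM, so that KO library 1 stood alone. The log2 fold changes of the 3 genes were 0.49, 0.22 and 0.31, with adjusted p from 0.732 to 0.906 by limma. With the GC trend removed, Eif2s2 and Eif2s3x had negative values of -0.17 and -0.00041.

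Per length of coding sequence, the 3 subunits were far from equal. Depth-scaled reads per coding kilobase were 201 for Eif2s2, 45.3 for Eif2s1 and 28.3 for Eif2s3x over the 4 libraries, a 7.10-fold range, and a 3.42-fold range per length of gene in RPKM. Eif2s2 lay above the other two in each library on both scales, while Eif2s1 and Eif2s3x overlapped. Of the 28-base windows of their coding sequences, 85.4% in Eif2s2, 61.9% in Eif2s1 and 95.03% in Eif2s3x also occur in transcripts of another gene, so their levels are uncertain as far as the authors' counting could split such reads.

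Among the subunits of eIF2B, the exchange factor of eIF2, Eif2b1 was the one of 5 with the groups apart in the higher direction, as were 20.1% of all tested genes. Eif2b1 (ENSMUSG00000029388, chromosome 5, 124570213 to 124579131, minus strand, 9 exons), the alpha subunit of the regulatory core, read 7.07 and 5.76 RPKM in WT and 12.8 and 12.95 RPKM in the KO-labelled libraries. Its mean was 2.01-fold higher, from 11 and 7 reads in WT against 30 and 27 (log2 fold change 0.91, standard error 0.37, adjusted p 0.672 by limma). For the other subunits the libraries overlapped. Eif2b2, of the same core, read 22.0 and 19.1 against 18.7 and 24.96 RPKM. Eif2b4, also of the core, read 11.5 and 14.7 against 13.2 and 29.5 RPKM, with KO library 2 as the high value. The catalytic side, Eif2b3 and Eif2b5, read 2.04 and 4.56 against 3.38 and 5.89 RPKM, and 16.6 and 13.1 against 11.9 and 13.8 RPKM. The other 4 log2 fold changes ran from -0.19 (Eif2b5) to 0.57 (Eif2b4), the latter being 0.015 without KO library 2. The median of the 5 genes was 0.42, or 0.17 with the GC trend removed. None of these 5 genes shares a 28-base coding window with another gene.

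The subunits of eIF2B lay closer together per coding kilobase than per gene length. Means ran from 16.7 for Eif2b5 to 38.0 for Eif2b2 depth-scaled reads per coding kilobase, a 2.27-fold range, and in RPKM the range was 5.35-fold. No neighbours in this order differed beyond their spread over the 4 libraries on either scale. The non-canonical factors Eif2a and Eif2d, which act outside the eIF2 cycle, were low, at or under 4.51 and 2.01 RPKM, with log2 fold changes of 0.05 and 0.51. Without WT library 1 the value of Eif2a was -0.23, and without WT library 2 that of Eif2d was 0.22.

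eIF3 is the large complex that binds the small ribosomal subunit and gathers other factors on it. Of its 13 tested subunit genes 11 lay above 0 and 8 were higher without overlap, against 20.1% of all tested genes, with a median log2 fold change of 0.52. Without WT library 1 the median was 0.22. Eif3f was lower without overlap, and Eif3j1 lay below 0 with overlap. The eIF3 genes together took 0.364% ± 0.041 (SD, n = 2) of the protein-coding reads in WT and 0.458% ± 0.006 (SD, n = 2) under the KO label. The libraries did not overlap, and the exact permutation p was 0.33.

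In RPKM, the highest eIF3 genes were Eif3g, Eif3c and Eif3b. Eif3g (ENSMUSG00000070319, chromosome 9, 20894349 to 20898623), an RNA-binding subunit, read 51.0 and 139 RPKM in WT and 123 and 164 RPKM under the KO label. WT library 1 was far below the other libraries and the groups overlapped (log2 fold change 0.74, standard error 0.62, adjusted p 0.723 by limma), and without that library the log2 fold change was 0.03. Eif3c, a subunit of the structural core, read 59.5 and 70.7 RPKM in WT and 111 and 89.6 RPKM, with the groups apart (log2 fold change 0.62). Eif3b, the scaffold of the peripheral module, read 57.0 and 64.7 against 79.4 and 82.9 RPKM, also apart (log2 fold change 0.41). Eif3i, which sits with Eif3b and Eif3g, read 13.9 and 22.4 against 28.9 and 29.4 RPKM. The other subunits higher without overlap were Eif3a, Eif3d, Eif3e, Eif3k and Eif3l, with log2 fold changes from 0.33 (Eif3e) to 0.63 (Eif3l). Without WT library 1 these values were 0.010 for Eif3e and 0.22 for Eif3l.

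Eif3f (ENSMUSG00000031029, chromosome 7, 108934417 to 108942951, 8 exons) was the eIF3 subunit gene with the groups apart in the lower direction. It read 60.2 and 55.1 RPKM in WT and 34.7 and 42.0 RPKM in the KO-labelled libraries (log2 fold change -0.58, standard error 0.41, adjusted p 0.706 by limma). Eif3f codes for a subunit that is known in muscle for its link to mTORC1 and to the size of myotubes. Scaled to the same sum of reads it had a log2 fold change of 0.02, which is -0.47 from the median of all genes. Eif3j1, a loosely bound subunit, read 5.12 and 2.91 against 4.35 and 1.70 RPKM, and the groups overlapped. All of its 28-base windows occur in other genes, 99.7% of them in Eif3j2, which was listed at 0 throughout.

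Per coding kilobase, the eIF3 genes spanned a 9.40-fold range, from 26.2 for Eif3j1 to 246 for Eif3g, which was followed by Eif3k at 134 and Eif3f at 128. Leaving out Eif3j1, the other 12 spanned 4.98-fold, with a median of 94.2 depth-scaled reads per coding kilobase and a middle range from 63.9 to 114. In RPKM, which divides by the whole gene length, the 12 spanned 11.6-fold. Neighbours in the order per coding kilobase overlapped over the 4 libraries at every step.

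**Figure D2:**
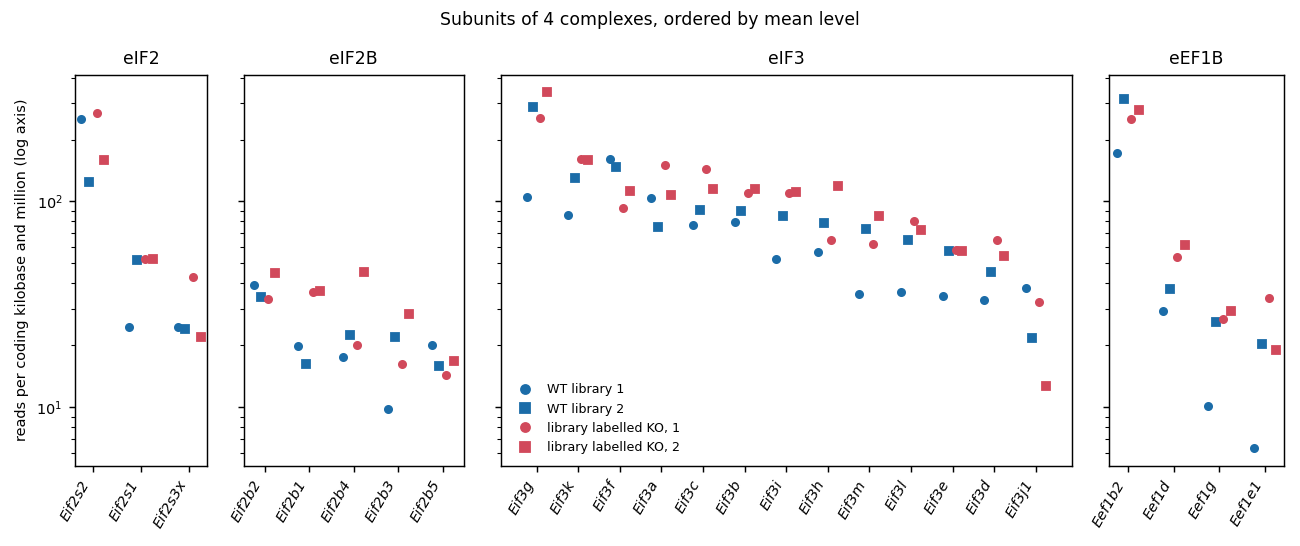
Depth-scaled reads per coding kilobase (log axis) of the subunits of eIF2, eIF2B, eIF3 and eEF1B in each of the 4 libraries, ordered by the mean. Eif2s2 and Eef1b2 stand above their partners in each library, the eIF2B subunits span 2.27-fold, and the eIF3 genes run from 26.2 to 246.

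In the cap-binding group, the cap-binding protein and its inhibitor stood on opposite sides. Eif4e (ENSMUSG00000028156, chromosome 3, 138526179 to 138559696, 8 exons) codes for the protein that binds the mRNA cap. It read 4.69 and 8.13 RPKM in WT, from 17 and 23 reads, and 15.97 and 15.87 RPKM in the KO-labelled libraries, from 87 and 77 reads. Each KO value was above each WT value, and the mean was 2.48-fold higher (log2 fold change 1.23, standard error 0.41, adjusted p 0.665 by limma). Across the 15 alternative settings its log2 fold change stayed above 0 and its adjusted p ran from 0.289 to 0.944. Of the coding windows of Eif4e, 80.4% also occur in pseudogenes, and the 4 pseudogenes concerned had 0 reads in each library.

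The related genes showed smaller differences. Eif4e2, whose product binds caps without supporting initiation by eIF4G, read 3.32 and 4.25 RPKM in WT and 5.74 and 5.61 RPKM, with the groups apart (log2 fold change 0.49). Eif4e3 was at or under 1.75 RPKM. Within the pair of Eif4e and Eif4e2, Eif4e held 62.1% ± 5.02 (SD, n = 2) of the RPKM in WT and 73.7% ± 0.21 (SD, n = 2) under the KO label, without overlap (exact permutation p = 0.33, adjusted over the 6 pairs 0.667).

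Eif4ebp2 (ENSMUSG00000020091, chromosome 10, 61428491 to 61452661, minus strand, 3 exons) had the lowest log2 fold change of the tested factors. It codes for a 4E-binding protein, an inhibitor that competes with the scaffold for eIF4E. Its signal was 10.9 and 8.81 RPKM in WT, from 38 and 24 reads, and 3.24 and 4.71 RPKM in the KO-labelled libraries, from 17 and 22 reads. The groups were apart and the mean was 0.403 of the WT mean (log2 fold change -1.13, standard error 0.38, adjusted p 0.665 by limma). The value stayed below 0 in each of the 15 alternative settings, with adjusted p from 0.346 to 0.944. None of its coding windows occurs in another gene.

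The other inhibitors overlapped between groups. Eif4ebp1, the 4E-binding protein most used as a readout of mTORC1, read 23.4 and 22.2 RPKM in WT and 12.6 and 28.2 RPKM, so that the libraries labelled KO lay on either side of WT (log2 fold change -0.26, and 0.29 without KO library 1). Eif4enif1, which carries eIF4E into the nucleus, read 8.07 and 2.67 against 3.98 and 4.28 RPKM. The 3 tested inhibitors thus lay below 0 with a median of -0.26, and scaled to the same sum of reads 2 of them lay above 0 with a median of 0.31, or -0.19 from the median of all genes. With the GC trend removed, 1 lay above 0. Eif4ebp1 made up 69.9% ± 2.39 (SD, n = 2) of the RPKM of this pair of 4E-binding protein genes in WT and 82.6% ± 4.39 (SD, n = 2) under the KO label, without overlap (exact permutation p = 0.33). RPKM divides by the whole gene length, 2196 bases for Eif4ebp1 and 5784 for Eif4ebp2. Per coding kilobase the share of Eif4ebp1 was 47.6% ± 2.84 (SD, n = 2) in WT and 65.1% ± 6.96 (SD, n = 2) under the KO label. Which gene led in WT thus depended on the scale.

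A ratio within each library does not depend on library scaling. The ratio of Eif4e to the sum of Eif4ebp1 and Eif4ebp2, in RPKM, was 0.137 and 0.262 in WT and 1.01 and 0.482 in the KO-labelled libraries. The groups did not overlap, and p was 0.33 by exact permutation. This ratio was chosen after the values of its genes had been seen and is a description.

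The helicase and scaffold of the cap complex differed in how far apart their libraries lay. Eif4a1 (ENSMUSG00000059796, chromosome 11, 69666936 to 69672423, minus strand, 11 exons), the main helicase gene, read 11.1 and 31.8 RPKM in WT and 50.9 and 44.6 RPKM in the KO-labelled libraries. The groups were apart, but WT library 1 lay well under WT library 2 (log2 fold change 1.29, standard error 0.58, adjusted p 0.676 by limma), and without WT library 1 the log2 fold change was 0.57. Its coding windows occur to 99.4% in other genes, of which the pseudogenes had between 0 and 6 reads in a library, against 29 to 200 on Eif4a1. Exons of Eif4a1 also overlap the snoRNA genes Gm22988 (144 bases) and Gm24029 (143 bases) on the same strand, and exons of Eif4a2 overlap snoRNA genes too. How the counting treated such reads is not given in the sources used here. Eif4a2 read 17.7 and 12.3 against 16.5 and 19.9 RPKM, with overlap. As a share of the helicase pair, Eif4a1 held 38.5% and 72.1% in WT and 75.5% and 69.1% under the KO label, so WT library 1 alone stood apart (exact permutation p = 0.667). Eif4a3, a helicase of the exon junction complex, overlapped as well.

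Eif4h, a cofactor of the helicase, read 33.2 and 41.3 RPKM in WT and 58.2 and 49.1 RPKM under the KO label, apart between groups (log2 fold change 0.52). Eif4b, the other cofactor, stayed between 46.8 and 50.7 RPKM over the 4 libraries (log2 fold change 0.06). The scaffold gene Eif4g1 read 44.1 and 29.4 against 56.9 and 42.2 RPKM, and Eif4g3 read 10.5 and 4.03 against 7.87 and 8.28 RPKM. Neither was apart, and Eif4g1 held 84.4% ± 5.07 (SD, n = 2) of the pair in WT and 85.7% ± 3.00 (SD, n = 2) under the KO label. Eif4g2, a scaffold that lacks the eIF4E-binding site, stayed between 18.1 and 21.9 RPKM in every library (log2 fold change 0.04, standard error 0.38). Per coding kilobase, Eif4h was the highest gene of the cap complex, at 339 depth-scaled reads per coding kilobase, and stood above each other gene in each library; Eif4a1, Eif4b and Eif4e followed at 123, 117 and 103 and overlapped.

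**Figure D3:**
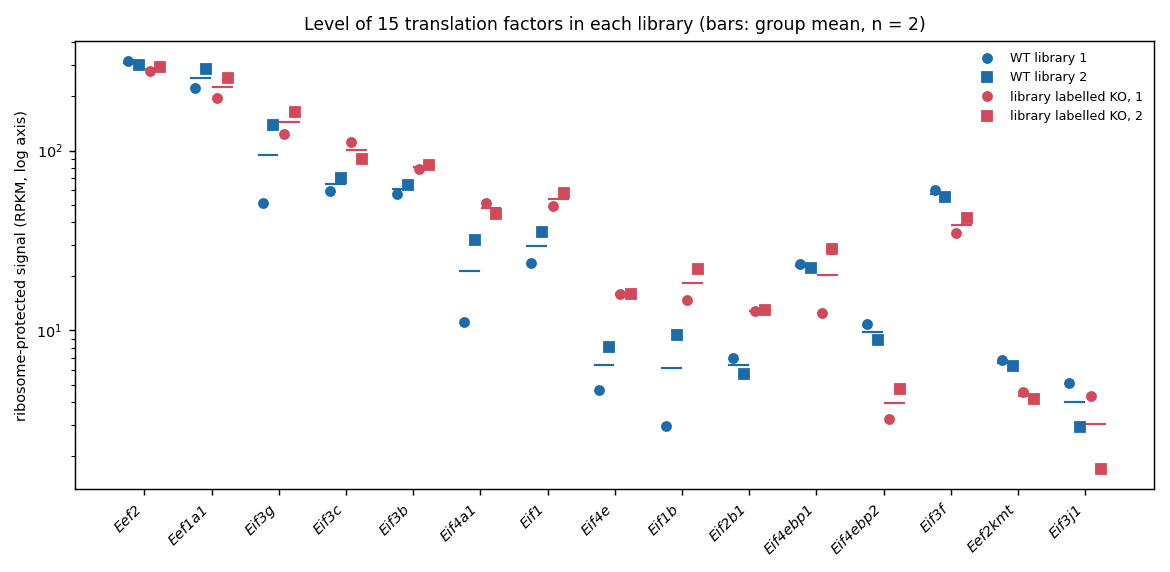
RPKM (log axis) of 15 factors in each library, circles for library 1 and squares for library 2 of each group, with bars for the group mean (n = 2). Eif4e, Eif1b, Eif1, Eif4a1, Eif2b1, Eif3b and Eif3c have both KO-labelled libraries above WT. Eif4ebp2, Eif3f, Eef2kmt and Eef2 have both below, Eef2 by a small margin between 278 and 314 RPKM. Scaled to the same sum of reads, which moves the median of all genes to 0.50, Eif3f, Eef2kmt, Eef1a1, Eef2, Eif3j1 and Eif4ebp1 have log2 fold changes above 0, and of these Eef2 alone lies above that median, by 0.013.

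The 3 factors of subunit joining lay above 0, with a median of 0.48, or 0.19 with the GC trend removed. Without KO library 2 the median was 0.295, and without WT library 1 it was 0.303. Eif5b, the GTPase that joins the large subunit, read 14.8 and 9.79 RPKM in WT and 24.2 and 13.3 RPKM, with overlap (log2 fold change 0.54, and 0.13 without KO library 1). Eif6, which keeps the large subunit from joining too early, read 38.7 and 65.2 against 60.8 and 81.6 RPKM, with overlap (log2 fold change 0.48, and 0.11 without WT library 1). For Eif5, the GTPase-activating protein of eIF2, the values were 10.9 and 12.4 RPKM in WT and 14.5 and 16.7 RPKM under the KO label. Its groups were apart in the higher direction (log2 fold change 0.39, standard error 0.37, adjusted p 0.737 by limma).

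Among the elongation factors, Eef2 and Eef1a1 had the most signal of all 62 genes, and both lay slightly below 0. Eef2 (ENSMUSG00000034994, chromosome 10, 81176631 to 81182498, 14 exons), the translocase, read 314 and 298 RPKM in WT and 278 and 291 RPKM in the KO-labelled libraries. These values were lower without overlap by a small margin (log2 fold change -0.10, standard error 0.49, adjusted p 0.957 by limma). Eef1a1 (ENSMUSG00000037742, chromosome 9, 78478449 to 78489151, minus strand, 8 exons), which delivers tRNAs, read 223 and 285 against 196 and 253 RPKM, with overlap (log2 fold change -0.18, standard error 0.50). Scaled to the same sum of reads, Eef2 lay 0.013 above the median of all genes and Eef1a1 lay at -0.060 from it, on the log2 scale. By quantile normalization they lay 0.58 and 0.33 above it, so their direction differed under that setting. Windows shared with other genes made up 89.4% of Eef1a1 and 31.6% of Eef2. The 23 pseudogenes that share windows with Eef1a1 had 7 to 24 reads in a library, against 335 to 509 on Eef1a1.

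Eef1a2, the form that replaces Eef1a1 in mature muscle and neurons, had 0 reads in 3 libraries and 3 in KO library 2. Its share of the pair was 0 of 335 reads in each WT library, and Eef1a1 held at least 98.9% there by the Wilson interval. No fold is given for it, since both groups are at or under the floor of 3 reads.

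Within each library, all genes with an initiation factor symbol were summed, the eIF4E inhibitors included. Their RPKM was 1.62 and 1.86 times that of Eef1a1 and Eef2 in WT, and 2.72 and 2.50 times in the KO-labelled libraries. For the eIF3 genes alone the ratio was 0.751 and 0.962 in WT and 1.33 and 1.24 under the KO label. Neither overlapped between groups, and the exact two-sided permutation p was 0.33 for each. Both ratios were chosen after the values had been seen. As a share of the reads on all factors, Eef1a1 and Eef2 came to 27.8% ± 0.59 (SD, n = 2) in WT and 20.8% ± 1.99 (SD, n = 2).

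**Figure D4:**
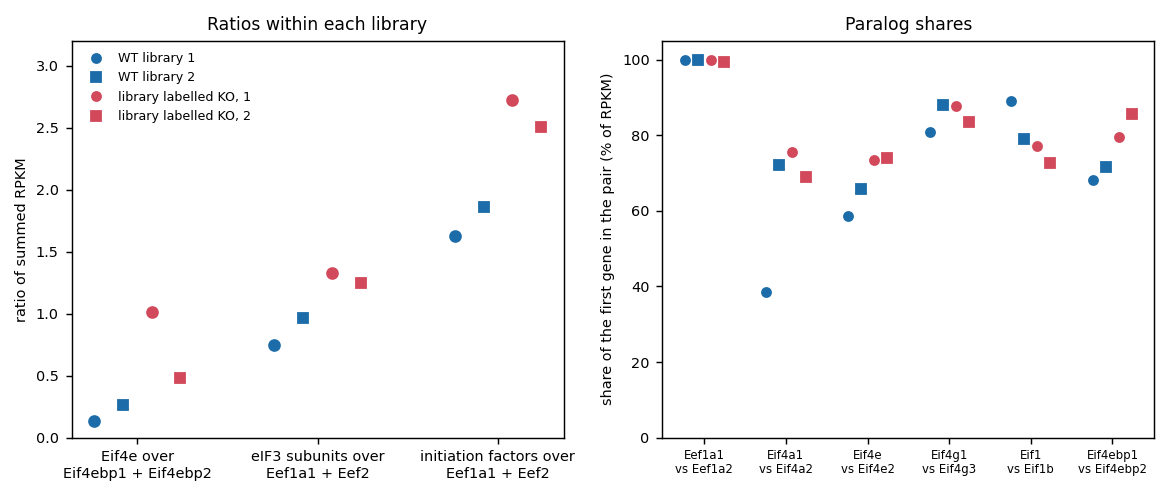
Left, ratios of summed RPKM within each library; right, the share of the first gene of each paralog pair, as a percentage of the pair's RPKM. The ratio of Eif4e to its inhibitors is 0.137 and 0.262 in WT and 1.01 and 0.482 under the KO label, and the Eif4a1 share of 38.5% in WT library 1 stands apart from the other 3 libraries.

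All genes of the eEF1B list lay above 0, and 3 of 4 did with the GC trend removed. These 4 genes (Eef1b2, Eef1d, Eef1g and Eef1e1, the last coding for a protein better known from the tRNA synthetase complex) had a median log2 fold change of 0.72. Without WT library 1 that median was 0.18, and Eef1b2 lay at -0.24. Eef1d, a catalytic subunit, read 8.95 and 11.5 RPKM in WT and 16.5 and 18.7 RPKM, with the groups apart. Eef1g, the structural subunit, read 5.10 and 13.1 against 13.6 and 14.8 RPKM, apart by a small margin, and 95.9% of its windows are shared. Eef1b2, the other catalytic subunit, read 45.9 and 83.8 against 67.1 and 74.3 RPKM, inside the spread of WT. Per coding kilobase Eef1b2 lay at 254, above its partners in each library, followed by Eef1d at 45.5 and Eef1g at 23.1. The length used for Eef1d was that of its longest coding sequence, 1980 bases, and a shorter form would give a higher value.

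Among the factors, 9 are known to come from mRNAs with a terminal oligopyrimidine tract, which mTORC1 controls (Eef1a1, Eef1b2, Eef1d, Eef1g, Eef2, Eif3e, Eif3f, Eif3h and Eif4b). Of these 6 lay above 0, with a median log2 fold change of 0.18, and 4 were higher and 2 lower without overlap, against 20.1% and 20.3% of all tested genes.

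The enzymes that modify the elongation factors had little signal. Eef2kmt (ENSMUSG00000022544, chromosome 16, 5244152 to 5255983, minus strand, 8 exons), the lysine methyltransferase of eEF2, read 6.81 and 6.34 RPKM in WT and 4.53 and 4.16 RPKM in the KO-labelled libraries. The groups were apart in the lower direction (log2 fold change -0.50, standard error 0.35, adjusted p 0.701 by limma), from 8 to 11 reads a library. Its exons share 472 bases with Alg1 on the opposite strand, and whether the counting used strand is not given in the sources used here. Eef2k, the kinase that inhibits eEF2, read 0.90 and 2.58 against 1.79 and 1.34 RPKM. Eef1akmt1 had 0 and 2 reads in WT and 4 and 10 under the KO label, and its log2 fold change of 1.93, the highest of the tested factors, rests on those counts. Eef1akmt2 (1 and 1 reads against 12 and 3) and Eef1akmt4 (0 and 1 against 2 and 3) were also higher without overlap on few reads, and Eef1aknmt was lower without overlap, at 2.21 and 2.18 against 2.15 and 1.53 RPKM.

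Across the 57 tested genes the Pearson correlation of the group means on log2(RPKM + 1) was 0.956, beside 0.918 between the WT libraries and 0.953 between those labelled KO. These are correlations across genes, which are not independent replicates and share library and depth. Between log2 fold change and mean RPKM the Spearman rho was -0.01 over 57 genes.

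Sequence shared with other genes bears on how well a factor can be counted. Of the 62 genes, 16 had over 50% of their 28-base coding windows in transcripts of another gene, and 19 had none. The 14 tested genes above 50% had a median log2 fold change of 0.48 and 7 of them were higher without overlap, and the 43 tested genes at or below 50% had a median of 0.47, with 19 higher and 5 lower without overlap, while 20.1% and 20.3% of all tested genes were. Across genes, the level per coding kilobase had a Spearman rho of 0.34 with the share of such windows (58 genes), and the log2 fold change a rho of 0.09 (57 genes). Exons of 13 tested factors overlap another protein-coding gene, and their median was 0.48.

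**Figure D5:**
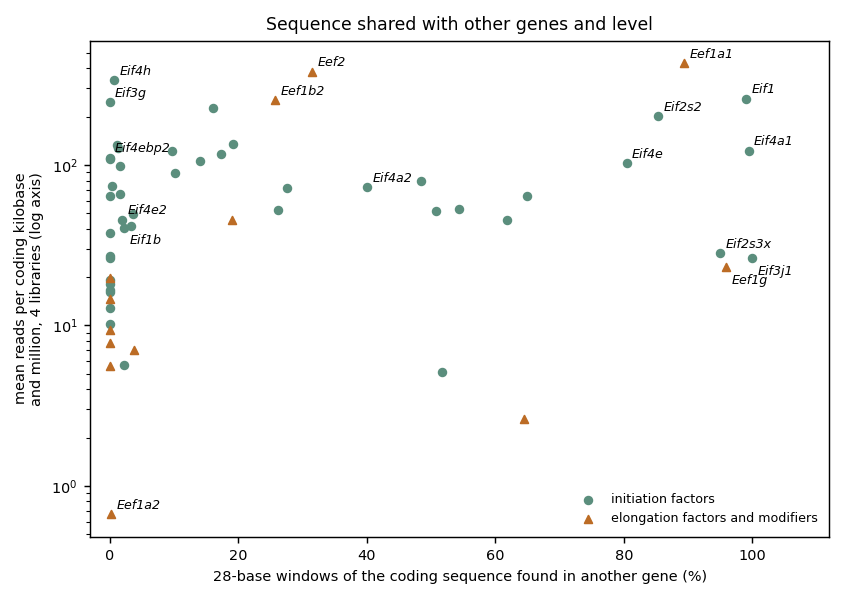
Mean depth-scaled reads per coding kilobase over the 4 libraries (log axis) of the 58 factors with reads, against the share of 28-base coding windows found in another gene. Eef1a1, Eif1 and Eif4a1 combine high levels with shares from 89.4% to 99.4%, while Eef2 (31.6%), Eif4h and Eif3g reach similar levels with fewer or no shared windows.

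The base composition of the coding sequence moved with the fold change as well. Over 9869 protein-coding genes log2 fold changes had a Spearman rho of -0.36 with coding GC, and over the 57 tested factors the rho was -0.21. The factors had a median coding GC of 51.4%, against 53.2% for all protein-coding genes tested. The 28 factors under the median GC had a median log2 fold change of 0.48 and the 29 at or above it 0.44.

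Other genes of the pathway, taken from lists of regulators and partners, lay on both sides of 0. Of 39 tested genes 22 lay above 0, with a median of 0.04, and 9 (23.1%) were higher and 10 (25.6%) lower without overlap, shares near the 20.1% and 20.3% of all tested genes. The controls of mTORC1 and of the eIF4E kinases MNK had a median of -0.28 over 9 tested genes, 5 lower and 2 higher without overlap. Akt1s1, the mTORC1 inhibitor PRAS40, read 14.04 and 14.51 RPKM in WT and 5.38 and 7.25 RPKM in the KO-labelled libraries. It was the single one of the 39 genes at an unadjusted p under 0.05 (log2 fold change -1.07, standard error 0.37, adjusted p 0.672 by limma), against 4.46% of all tested genes in the lower direction, and its groups were apart. The termination and recycling list had 6 of 7 genes above 0 and 3 higher without overlap (median 0.39). Helicases and ABC proteins of initiation outside the eIF4 family had 3 of 4 above 0 (median 0.59), among them Ddx3x at 28.6 and 53.1 RPKM in WT against 80.2 and 69.2 RPKM, and the mitochondrial translation factors had 6 of 8 (median 0.38). The poly(A)-binding proteins and their partners had 2 of 5 above 0 (median -0.15), and the eIF2 kinases and phosphatase subunits had 2 of 6 (median -0.17).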

How the data were processed

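Ribosome-protected fragments were sequenced from 2 WT and 2 KO-labelled samples, grouped by their titles. The authors removed low-quality, rRNA and tRNA reads, mapped with TopHat2 to mm10 (Ensembl annotation), counted genes with HTSeq and deposited RPKM values. Tool versions and strand settings are not given in the sources used here. RPKM times gene length gave whole reads (within 0.01 read) for 100% of values, and the authors divided by library sizes of 602863 and 471136 (WT) and 906990 and 807705 (KO), which are not the totals of these reads (648386, 642429, 704006 and 650210). The median total over the 4 libraries, among factors with reads, was 191.

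The test was limma 3.58.1 (R 4.3.3; lmFit, eBayes with trend=TRUE) on log2(RPKM + 1) of genes whose mean RPKM was 1 or more, all 4 libraries, with Benjamini-Hochberg adjustment over all tested genes. The script was tested on simulated data. The factors, the lists and the rules were chosen with earlier results of these data known. Values in every library are given for factors at an unadjusted p under 0.05, the 5 lowest and 5 highest fold changes among those with at least 20 reads, the 5 with the highest mean RPKM, 6 paralog pairs, the subunits of eIF2 and eIF2B, and the highest and lowest subunit of eIF3. Others named were chosen after their values were seen.

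Coding sequences, GC and 28-base windows came from GENCODE M21 (GRCm38), where all 62 factors have the table's coordinates. The longest annotated coding sequence of each gene was used, so levels per coding kilobase are too low where a shorter form is translated. A window counted as shared when a transcript of another gene held it. Intervals cover counting error only. Alternatives were another pseudocount, filters, scalings, limma-voom, no trend, a replicate block, removal of the GC trend (lowess, span 0.3) and leaving out each library.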

Additional observations from a re-analysis of the deposited data

How the results depend on the processing

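No factor passed an adjusted p of 0.05 in any of the 15 alternative settings. Scaled to the same sum of reads, at an unadjusted p under 0.05 there were 23 higher and 0 lower factors (14.8% and 1.48% of all genes), 46 were higher and 1 was lower without overlap (41.9% and 7.54% of all genes), and the median was 1.02 while that of all genes was 0.50. Without overlap there were 29 higher and 3 lower by quantile normalization (22.8% and 17.8% of all genes), 18 and 5 with protein-coding sums made equal (16.4% and 23.5%), and 18 and 6 with the GC trend removed (19.3% and 19.5%), where the median was 0.25. Leaving out 1 library left, at an unadjusted p under 0.05, 0 lower factors and from 0 to 12 higher ones (12 without WT library 2, where 7.12% of all genes were higher), and medians from 0.29 to 0.61. Without overlap there were then 33 to 38 higher factors (31.7% to 35.9% of all genes) and 8 to 10 lower ones (30.4% to 39.4%), since fewer samples make such gaps more likely by construction. A library left alone in its group was assumed to vary like the other group. The Eif4g1 share of its pair changed by -2.21 to 4.96 points, the Eif1 share by -14.1 to -4.11 points (-9.10 with all libraries, -4.11 without WT library 1), and the Eif4e to inhibitor ratio by 1.28 to 2.45 on the log2 scale, without 1 library. Per coding kilobase the ranges were 7.10-fold (eIF2), 2.27-fold (eIF2B) and 65.8-fold (eIF4, in place of 37.7). Without 1 library, list medians ran from -0.14 (without KO library 1) to 0.58 for eIF2, from 0.015 (without KO library 2) to 0.75 for eIF2B, from 0.084 (without WT library 2) to 0.72 for eIF4G, from -0.82 (without WT library 2) to -0.13 for the eIF4E inhibitors and from 0.050 (without WT library 1) to 0.92 for the elongation factor modifiers.

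Turns of direction are listed for the 26 tested factors named by the rules above, and other factors turned as well. Of all 57 tested factors, 46 lay above 0 in the main fit. With the same sum of reads 56 did, with protein-coding sums made equal 42, by quantile normalization 49 and with the GC trend removed 42. Among the 26, the direction turned with the same sum of reads for Eef1a1 (0.44), Eef2 (0.51), Eef2kmt (0.012), Eif2b5 (0.38), Eif3f (0.021), Eif3j1 (0.092) and Eif4ebp1 (0.32), but this scaling moves the median of all genes to 0.50, and relative to it Eef2 alone of these 7 lay above (0.013), the others at -0.48 to -0.060. Among the same 26, the direction turned with protein-coding sums made equal for Eif2b2 (-0.038) and with quantile normalization for Eef1a1 (0.39) and Eef2 (0.64). With the GC trend removed it turned for Eef2 (0.050), Eif2s2 (-0.17), Eif2s3x (-0.00041), Eif4a2 (-0.068) and Eif4ebp1 (0.18). Without 1 library, ranges among the 26 crossed 0 for Eef1a1 (-0.36 to 0.0036), Eif2b2 (-0.13 to 0.27), Eif2b3 (-0.017 to 0.86), Eif2s2 (-0.27 to 0.71), Eif2s3x (-0.14 to 0.75), Eif3j1 (-0.86 to 0.13), Eif4ebp1 (-0.81 to 0.29) and Eif4g3 (-0.34 to 0.85). Outside the 26, ranges of further factors crossed 0, among them Eif2a (-0.23 to 0.34) and Eif4enif1 (-0.82 to 0.48). The cause was not tested.

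Same-numbered libraries share only a number. The replicate block changed no count over the factors, with 0 at an adjusted p under 0.05, and 4 at an unadjusted p under 0.05, of which 1 was lower and 3 were higher. Over all genes it left 0% at an adjusted p under 0.05, in place of 0.106%. Deviations of same-numbered libraries had a correlation of 0.112 over 8962 genes. Depth limits the factors with few reads: 53 of 62 had at least 20 reads over the 4 libraries.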
